A study of Rattus norvegicus with 30 samples.

Results

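Protocadherins are the largest subgroup of the cadherin superfamily of adhesion proteins, and their RNA was followed here in rat dorsal hippocampus. The members are all rows of the count table whose symbol starts with Pcdh and whose counts, summed over the 30 libraries, reach 100. Of 17455 rows, 49 carry such a symbol and 48 reach that sum. Only Pcdha1, with 59 counts, fell short, while the lowest members were Pcdhga1 with 634, Pcdhac1 with 643 and Pcdh12 with 665 counts. By symbol, 14 members belong to the alpha cluster, 11 to the beta cluster and 13 to the gamma cluster, which makes 38 clustered members, and 10 are unclustered. All 48 passed the filter on low counts and were tested.

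The libraries were made from polyadenylated RNA of TgF344-AD rats, which the labels call alzheimer, and of wildtype rats. TgF344-AD is a rat line in which mutated human APP is driven by the mouse prion promoter, which is active in many cell types. Both sexes were fed standard chow or a western diet. The 6 groups male_wildtype_chow, male_wildtype_western, male_alzheimer_chow, male_alzheimer_western, female_wildtype_chow and female_alzheimer_chow had 4 libraries each, and female_wildtype_western and female_alzheimer_western had 3. A cohort number is the only batch in the labels, with 14 libraries in cohort 1 and 16 in cohort 2, and each group held libraries of both. Neither the age of the rats nor whether each library came from its own rat is stated in the labels, so p-values measure the spread between these libraries.

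Clustered protocadherins lie side by side in the order alpha, beta, gamma. In the alpha and gamma clusters each isoform starts with its own variable exon, read from its own promoter and spliced to constant exons that the whole cluster shares, whereas beta genes are single-exon genes without constant exons. A neuron typically reads only a few of the variable promoters, chosen largely at random, and the resulting mix of surface proteins lets its branches recognise each other. The c-type isoforms, Pcdhac1, Pcdhac2 and Pcdhgc3 among the members, are the exception and are read more uniformly from neuron to neuron. Unclustered protocadherins are separate genes with roles in adhesion, axon guidance and synapse turnover.

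A row of this table is therefore named after 1 promoter choice in the alpha and gamma clusters. Reads from shared constant exons, and from near-identical beta genes, can be given to several rows or dropped. No source used here names the counting tool, so how such reads were shared out between rows is uncertain for all 38 clustered members.

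Promoter letters of the beta and gamma members that passed the genotype test are shown first, beside members that did not pass. No window is shown for Pcdha6, Pcdha7, Pcdhac2 and Pcdh8, which passed it too. RefSeq promoters of the assembly GRCr8, each from 250 bases before to 50 bases after a gene's start, were matched by symbol for 33 of 48 members. The other 15 had no entry of their own. They include 13 of the 14 alpha members, which RefSeq lists as other names of Pcdha4. No source used here names the genome build behind the counts, and coordinates below are those of the RefSeq table. The 10-letter word shared by the most promoters of clustered genes was GGTGGCGCTG, found in 15 of 35 such promoters (42.9%) and in 0.221% of all 33469 promoters, either strand. It was chosen after the sequences were seen. It contains CGCT, the core of the element known from clustered protocadherin promoters, and CGCT alone was found in 28 of the 35 (80%) but also in 60.9% of all promoters. All 11 beta members held the word, and no gamma or unclustered member with an entry did. These 30-base windows show it in capitals for Pcdhb4 and Pcdhb8, which fell in alzheimer rats, for Pcdhb3 and Pcdhb5 on either side of Pcdhb4, and for Pcdhb9, which did not pass the test.
Pcdhb3, chr18:29285604-29285633, plus strand: atgaacgcatGGTGGCGCTGttgactaaga
Pcdhb4, chr18:29292211-29292240, plus strand: aaggacgcttGGTGGCGCTGcaggctaagc
Pcdhb5, chr18:29302404-29302433, plus strand: atgaacgcagGGTGGCGCTGcaggctaaga
Pcdhb8, chr18:29339258-29339287, plus strand: taggacacacGGTGGCGCTGcagtctaagg
Pcdhb9, chr18:29379248-29379277, plus strand: aaagacacagGGTGGCGCTGcaggctaaga

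Gamma promoters shared another word. GCTGTTCACC, the 10-letter word found in the most gamma promoters and likewise chosen from the sequences, stood in 7 of the 12 gamma members with an entry, in none of the 11 beta members and in 0.12% of all promoters, either strand. A C stands right before it in 6 of the 7, so CGCT overlaps its start there; in Pcdhga1 the word opens the promoter entry, and the base before it was not read. Both gamma members that passed the genotype test hold it, 1 higher and 1 lower in alzheimer rats, and so do Pcdhga8 and Pcdhga10, which did not pass. The windows of these 4 members are given, with the word in capitals.
Pcdhga7, chr18:29794211-29794240, plus strand: tctgcgtgccGCTGTTCACCaaccatgaga
Pcdhga8, chr18:29805006-29805035, plus strand: tctaagcgccGCTGTTCACCtgctaagaga
Pcdhga10, chr18:29825820-29825849, plus strand: tctgagcgccGCTGTTCACCtaccaggagc
Pcdhga12, chr18:29843868-29843897, plus strand: tctgagcgccGCTGTTCACCcacggggagg

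Each library held 13.9 to 31.4 mega-counts, 17.8 at the median, and 0.110% to 0.129% of them fell on the 48 members, which is 15992 to 38205 counts. Xist (row LOC100911498), Eif2s3y and App separated the libraries by labelled sex and genotype without overlap, and App ran from 3137 to 3398 CPM in alzheimer against 1548 to 1782 CPM in wildtype libraries. CPM is the number of counts per mega-count of the library, after scaling of library sizes. Markers of hippocampal excitatory neurons summed to between 6716 and 7693 CPM and those of CA3 and CA2 to between 1932 and 2419 CPM over the libraries. Choroid plexus markers summed to 61.8 CPM in male_alzheimer_chow replicate 30, 35.6 in female_wildtype_chow replicate 20 and 18.7 in female_alzheimer_western replicate 11, and to 16.5 CPM at most in the others.

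Reads were spread unevenly within each family. CPM is not divided by transcript length, and no lengths were used here, so the shares below compare read numbers and not RNA molecules. The 10 unclustered members together took 720 ± 29.3 CPM (SD, n = 30), the gamma members 276 ± 13.7, the beta members 101 ± 5.59 and the alpha members 77.0 ± 5.495 CPM. Clustered members thus held 38.7% of the reads of all 48 members, between 36.6% and 40.8% in single libraries. Some protocadherin genes in RefSeq have no row of that name here, among them Pcdhb1, Pcdhb7, Pcdhga4, Pcdhgc5, Pcdh1 and Pcdh10. Shares and ranks therefore cover the members and not whole families.

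Among unclustered members, 3 genes carried most reads. Pcdh8 (also called Arcadlin, a synaptic protocadherin induced by neuronal activity) was read at 186 ± 15.4 CPM, Pcdh9 at 167 ± 7.62 and Pcdh20 at 165 ± 11.4 CPM (SD, n = 30). Pcdh17, a regulator of presynaptic vesicle assembly and axon extension, had 82.0 ± 5.72 CPM and Pcdh19, an X-linked gene mutated in an epilepsy that mainly affects females, had 71.1 ± 7.21 CPM. Pcdh7 followed with 33.4 ± 3.09 CPM. Pcdh15, a component of the tip links of hair cells, had 6.33 ± 0.876 CPM and Pcdh18 had 6.32 ± 0.892 CPM. Pcdh11x, at 1.37 ± 0.462 CPM, and the endothelial protocadherin Pcdh12, at 1.22 ± 0.335 CPM, were lowest.

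In the gamma cluster the c-type isoform Pcdhgc3, known for promoting dendrite growth, took 39.2% of the gamma members' reads with 108 ± 9.16 CPM. Pcdhga2 followed with 31.6 ± 3.53 CPM and Pcdhga7 with 19.5 ± 2.83 CPM, and Pcdhga1 was lowest with 1.18 ± 0.360 CPM. In the alpha cluster another c-type isoform led: Pcdhac2, which serotonergic neurons need to space out their axons, took 33.05% with 25.4 ± 2.37 CPM. Pcdha4 and Pcdha13 came next with 6.48 ± 1.002 and 5.64 ± 1.10 CPM, and the c-type Pcdhac1 was lowest with 1.16 ± 0.352 CPM. Beta reads were led by Pcdhb5 with 24.7 ± 2.68 CPM (24.4%) and Pcdhb9 with 22.1 ± 1.86 CPM (21.8%), followed by Pcdhb3 with 9.90 ± 1.85 CPM. Pcdhb21 was the lowest beta member with 3.06 ± 0.712 CPM.

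The families did not move together between genotypes. The alpha sum ran from 73.1 to 87.3 CPM, median 80.3, in 15 alzheimer libraries and from 64.1 to 85.7, median 74.1, in 15 wildtype libraries. Averaged over the 4 combinations of sex and diet, the alpha sum was 6.63 CPM (9.03%) higher in alzheimer rats, with 14 of 15 libraries above the wildtype mean of their sex and diet. The spread within groups was 4.10 CPM (SD), and the ranges overlapped. Without Pcdhac2 the alpha difference was 3.38 CPM (6.80%), with 13 of 15 libraries above and a spread within groups of 3.45 CPM. That sum was higher in alzheimer rats in 3 of the 4 combinations, but lower in males on chow (52.9 against 54.2 CPM).

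The beta sum pointed the other way. It ran from 87.7 to 108.8 CPM, median 98.8, in alzheimer and from 96.8 to 113.0, median 102.9, in wildtype libraries. The difference was -4.68 CPM (-4.52%), and only 1 of 15 alzheimer libraries lay above its wildtype mean, against a spread within groups of 5.06 CPM. Not every member shared it: 6 of the 11 beta members had a negative and 5 a positive log2 fold change. The beta sum without Pcdhb4 was not computed. The gamma sum differed by 0.87 CPM (0.32%) with 8 of 15 libraries above. It was higher in alzheimer rats in only 1 of the 4 combinations of sex and diet, males on chow (279 against 266 CPM). The sign of the gamma difference was not stable, since leaving out 1 library gave between -1.51 and 3.03 CPM. The unclustered sum was 33.4 CPM (4.74%) higher with 14 of 15 libraries above and a spread of 23.3 CPM. Of its 10 members 7 had a positive and 3 a negative log2 fold change. Pcdh8 held much of it, with group means of 202, 187, 191 and 204 CPM in alzheimer rats. In wildtype rats of the same sex and diet they were 178, 173, 181 and 173 CPM. The sum without Pcdh8 was not computed. The family sums were described and not tested, and the median log2 difference of all 12547 genes tested was 0.0020.

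**Figure D1:**
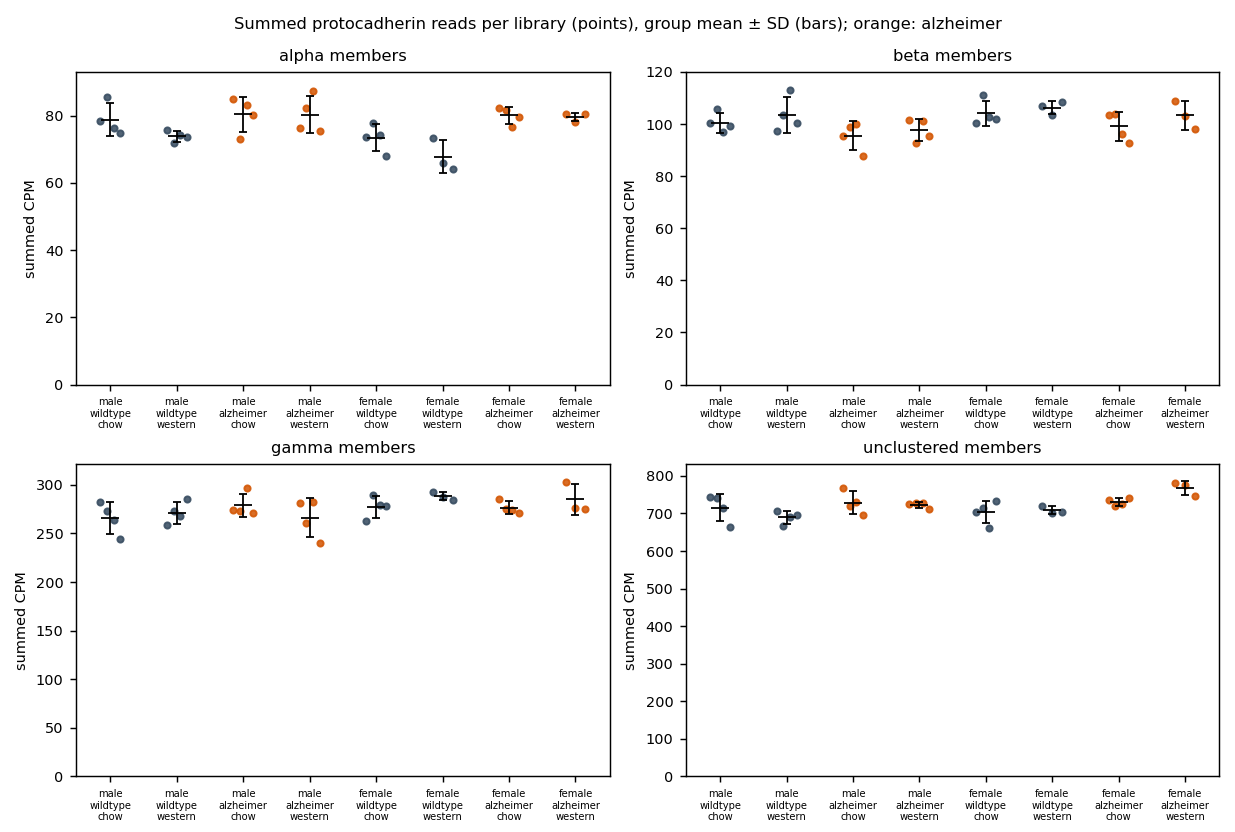
Summed CPM of the alpha, beta, gamma and unclustered members on the y axes, by group on the x axes; points are libraries (orange for alzheimer), bars are the group mean ± SD, and all y axes start at 0. The alpha and unclustered means of the alzheimer groups lie above, and the beta means below, those of the wildtype group of the same sex and diet.

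Over diet and sex the sums differed less between families. On the western diet the alpha sum was 2.79 CPM lower (-3.57%), with 4 of 14 western libraries above the chow mean, and the beta sum was 2.91 CPM higher (2.92%), with 8 of 14 above. In females the alpha sum was 3.10 CPM lower (-3.96%), with 4 of 14 above the male mean. The beta sum was 3.91 CPM higher (3.93%), with 11 of 14 above, and the gamma sum 11.4 CPM higher (4.20%), with 10 of 14 above. Without Pcdhgc3 the gamma difference between the sexes was 0.74 CPM.

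Genotype, averaged over sex and diet, changed 8 of 48 members at an adjusted p under 0.05 by edgeR's quasi-likelihood test with Benjamini-Hochberg adjustment over all genes tested. That is 16.7% of members, where 8.03% of all genes tested were called. Of the 8, 5 were higher and 3 lower in alzheimer rats, against backgrounds of 4.14% called higher and 3.89% called lower. Alpha members were called higher in 3 of 14 cases and lower in none, beta members lower in 2 of 11 and higher in none, gamma members higher in 1 and lower in 1 of 13, and unclustered members higher in 1 of 10. The median log2 fold change was 0.06 over the alpha, -0.07 over the beta, 0.0034 over the gamma and 0.05 over the unclustered members. In either cohort alone fewer members passed: 1 of 48, Pcdh8, with the 14 libraries of cohort 1, and 4, Pcdhb4, Pcdhga12, Pcdha7 and Pcdhga7, with the 16 of cohort 2. The background fell as well, to 0.567% of all genes tested in cohort 1 and 4.58% in cohort 2. The sign of the genotype difference was the same in both cohorts for 33 of 48 members and for all 8 called ones. The 8 were called by the fit of both cohorts together, so their agreement is no independent check. The share of all genes with the same sign in both cohorts was not computed.

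**Figure D2:**
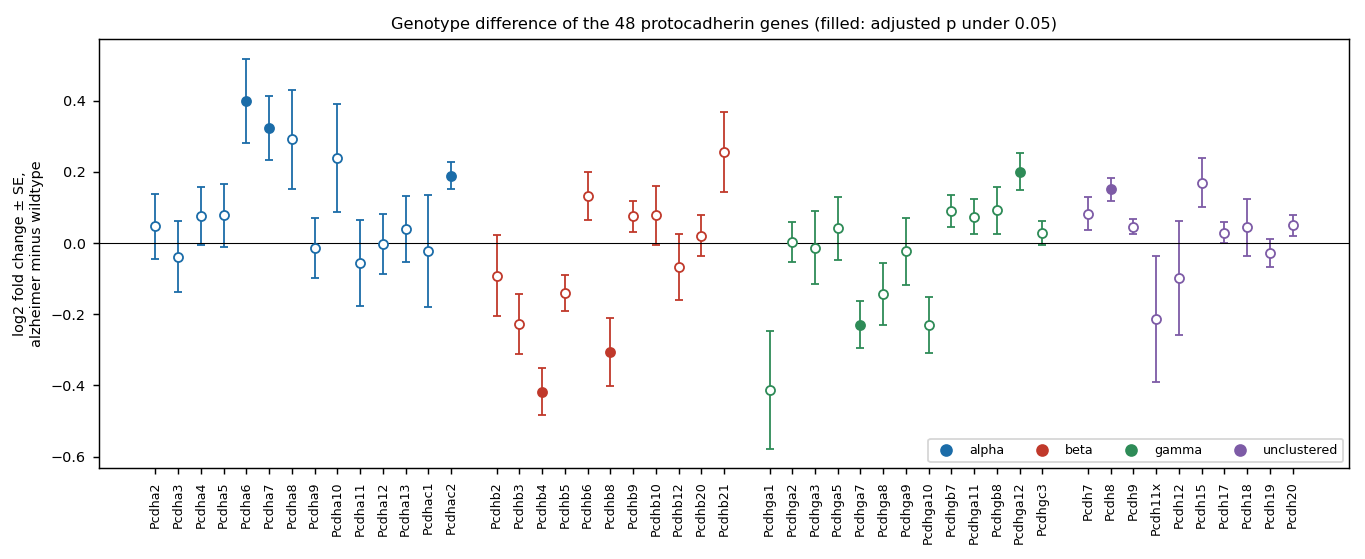
Log2 fold change of alzheimer over wildtype ± SE (y axis) for all 48 members (x axis), beta and gamma members in chromosomal order and the others by number; filled points have an adjusted p under 0.05. Pcdha6 to Pcdha8 lie at or above 0.29, Pcdhb3 to Pcdhb5 lie below 0 and Pcdhb4 is lowest at -0.42.

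Pcdhb4 showed the clearest difference. In CPM, its wildtype libraries read 9.17, 8.01, 9.78 and 10.8 in males on chow, 8.99, 10.47, 8.99 and 8.41 in males on the western diet, 11.1, 10.9, 9.27 and 9.58 in females on chow, and 7.60, 9.69 and 13.04 in females on the western diet. Alzheimer libraries read 7.30, 7.89, 7.22 and 6.91 in males on chow, 7.60, 7.90, 6.20 and 6.24 in males on the western diet, 8.34, 8.22, 6.997 and 7.31 in females on chow, and 6.94, 6.69 and 7.77 in females on the western diet. The 2 genotypes did not overlap in 3 of the 4 combinations of sex and diet. In females on the western diet 1 wildtype library, at 7.60 CPM, lay within the alzheimer range. The log2 fold change was -0.42 ± 0.067 (SE) with an adjusted p of 7.69e-05 by edgeR, and all 15 alzheimer libraries were below the wildtype mean of their sex and diet. Within cohorts it was -0.26 ± 0.086 in cohort 1 (adjusted p = 0.265 by edgeR) and -0.52 ± 0.082 in cohort 2 (adjusted p = 0.00102 by edgeR). Pcdhb4 was also the only member called by the test over all 8 groups (adjusted p = 0.0109 by edgeR), which called 3.74% of all genes tested. Cohort 1 alone did not call it in that test (adjusted p = 0.285 by edgeR). DESeq2 called 5 members over the 8 groups, adding Pcdh8, Pcdha10, Pcdhac2 and Pcdhgc3, and limma-voom called 4, the same without Pcdha10. In that test DESeq2 called 8.36% and limma-voom 6.68% of all genes tested, so these member counts stand near the background.

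Pcdhb8 was the other beta member that fell, from a low level and with a less secure call. Its lowest, median and highest values were 2.58, 3.17 and 4.76 CPM in alzheimer and 3.22, 4.07 and 5.57 CPM in wildtype libraries, and the genotypes overlapped in all 4 combinations of sex and diet. The log2 fold change was -0.31 ± 0.095 with an adjusted p of 0.0419 by edgeR, and 12 of 15 alzheimer libraries were below their wildtype mean. The call was lost without any 1 of 19 of the 30 libraries (adjusted p between 0.05003 and 0.0749 by edgeR), and also without the cohort term (adjusted p = 0.0589 by edgeR) or the 3 libraries high in choroid plexus markers (adjusted p = 0.0731 by edgeR).

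Next to Pcdhb4 on the chromosome lie Pcdhb3 and Pcdhb5. Pcdhb3 had a log2 fold change of -0.23 ± 0.084 (adjusted p = 0.0959 by edgeR) and Pcdhb5 of -0.14 ± 0.050 (adjusted p = 0.0799 by edgeR). Neither passed, although 13 of 15 alzheimer libraries were below the wildtype mean for each, and both passed where every gene with a count was kept. Other beta members had positive values, such as Pcdhb21 at 0.26 ± 0.11 (adjusted p = 0.169 by edgeR), Pcdhb6 at 0.13 ± 0.067 (adjusted p = 0.246 by edgeR) and Pcdhb9 at 0.08 ± 0.043 (adjusted p = 0.314 by edgeR), and none passed.

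Pcdhac2, the leading alpha isoform, rose. Wildtype CPM values were 24.6, 26.1, 25.5 and 22.2 in males on chow, 24.3, 23.2, 25.3 and 24.9 in males on the western diet, 22.9, 24.8, 23.9 and 22.5 in females on chow, and 22.6, 21.1 and 23.4 in females on the western diet. Alzheimer values were 26.7, 28.2, 27.7 and 27.3 in males on chow, 26.6, 27.9, 31.6 and 24.4 in males on the western diet, 30.2, 26.9, 24.8 and 25.2 in females on chow, and 24.8, 25.7 and 27.7 in females on the western diet. Only males on the western diet overlapped, where 1 alzheimer library read 24.4 CPM, and in females on chow the nearest libraries of the genotypes were almost level at 24.8 CPM. The log2 fold change was 0.19 ± 0.038 (adjusted p = 0.00140 by edgeR), and 14 of 15 alzheimer libraries were above their wildtype mean. It was 0.17 ± 0.055 in cohort 1 and 0.19 ± 0.056 in cohort 2, and neither cohort alone passed (adjusted p = 0.243 and 0.0684 by edgeR).

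A pair of neighbouring variable alpha isoforms rose as well. The lowest, median and highest values of Pcdha6 were 2.58, 4.62 and 5.28 CPM in alzheimer and 2.06, 3.09 and 4.75 CPM in wildtype libraries, and the genotypes overlapped in males but not in females on either diet. Its log2 fold change was 0.40 ± 0.12 (adjusted p = 0.0304 by edgeR), with 13 of 15 libraries above. For Pcdha7 these values were 2.99, 4.14 and 5.26 CPM in alzheimer against 2.45, 3.43 and 4.62 CPM in wildtype libraries. Its log2 fold change was 0.32 ± 0.090 (adjusted p = 0.0208 by edgeR), with 13 of 15 libraries above and an overlap everywhere except in females on the western diet.

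Both calls depended on single libraries. Leaving out any 1 of 8 libraries took Pcdha6 over the threshold (adjusted p between 0.0503 and 0.0705 by edgeR), and neither cohort alone called it. Pcdha7 lost its call without female_wildtype_western replicate 17 (adjusted p = 0.0514 by edgeR), in cohort 1 alone, where its log2 fold change was 0.17 ± 0.14, and without the 3 libraries high in choroid plexus markers (adjusted p = 0.0769 by edgeR). The next isoform, Pcdha8, had 0.29 ± 0.14 and did not pass (adjusted p = 0.209 by edgeR). Of the remaining variable alpha isoforms, Pcdha10 had 0.24 ± 0.15, and the others, Pcdhac1 included, lay between -0.06 and 0.08 without passing.

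In the gamma cluster Pcdhga12 and Pcdhga7 moved in opposite directions. Pcdhga12 had a lowest, median and highest value of 18.1, 19.9 and 22.9 CPM in alzheimer and 13.9, 17.3 and 22.1 CPM in wildtype libraries. All 15 alzheimer libraries were above the wildtype mean of their sex and diet, yet the genotypes overlapped in all combinations but females on chow. The log2 fold change was 0.20 ± 0.053 (adjusted p = 0.0146 by edgeR), with 0.12 ± 0.071 in cohort 1 and 0.27 ± 0.065 in cohort 2.

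Pcdhga7, 1 of the 3 most read gamma members, fell. Its values were 14.5, 17.5 and 22.1 CPM in alzheimer and 15.7, 21.2 and 24.6 CPM in wildtype libraries, again as lowest, median and highest, with an overlap in all combinations but females on the western diet. The log2 fold change was -0.23 ± 0.066 (adjusted p = 0.0250 by edgeR), and 12 of 15 alzheimer libraries were below. Without female_wildtype_western replicate 17 the call was lost (adjusted p = 0.0597 by edgeR), and without that library 5 members in all passed instead of 8. Pcdhga10, with -0.23 ± 0.079 and 14 of 15 libraries below, did not pass (adjusted p = 0.0665 by edgeR), nor did the low Pcdhga1, with -0.41 ± 0.17 (adjusted p = 0.124 by edgeR). Pcdhga10 passed with DESeq2 and with every gene kept that had a count, and Pcdhga1 with limma-voom.

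Pcdh8 was the unclustered member that rose. Its values were 170, 197 and 222 CPM in alzheimer and 156, 177 and 188 CPM in wildtype libraries (lowest, median and highest), and 9 alzheimer libraries lay above the highest wildtype library. The log2 fold change was 0.15 ± 0.032 (adjusted p = 0.00210 by edgeR), with 13 of 15 libraries above. In cohort 1 it was 0.19 ± 0.036 (adjusted p = 0.0172 by edgeR) and in cohort 2 it was 0.11 ± 0.044 (adjusted p = 0.172 by edgeR). Pcdh15 at 0.17 ± 0.069 (adjusted p = 0.133 by edgeR), Pcdh9 at 0.05 ± 0.021 (adjusted p = 0.176 by edgeR) and Pcdh7 at 0.08 ± 0.046 (adjusted p = 0.305 by edgeR) had positive values that did not pass. Pcdh20 had 0.05 ± 0.030 and Pcdh19 had -0.03 ± 0.040, also without passing.

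**Figure D3:**
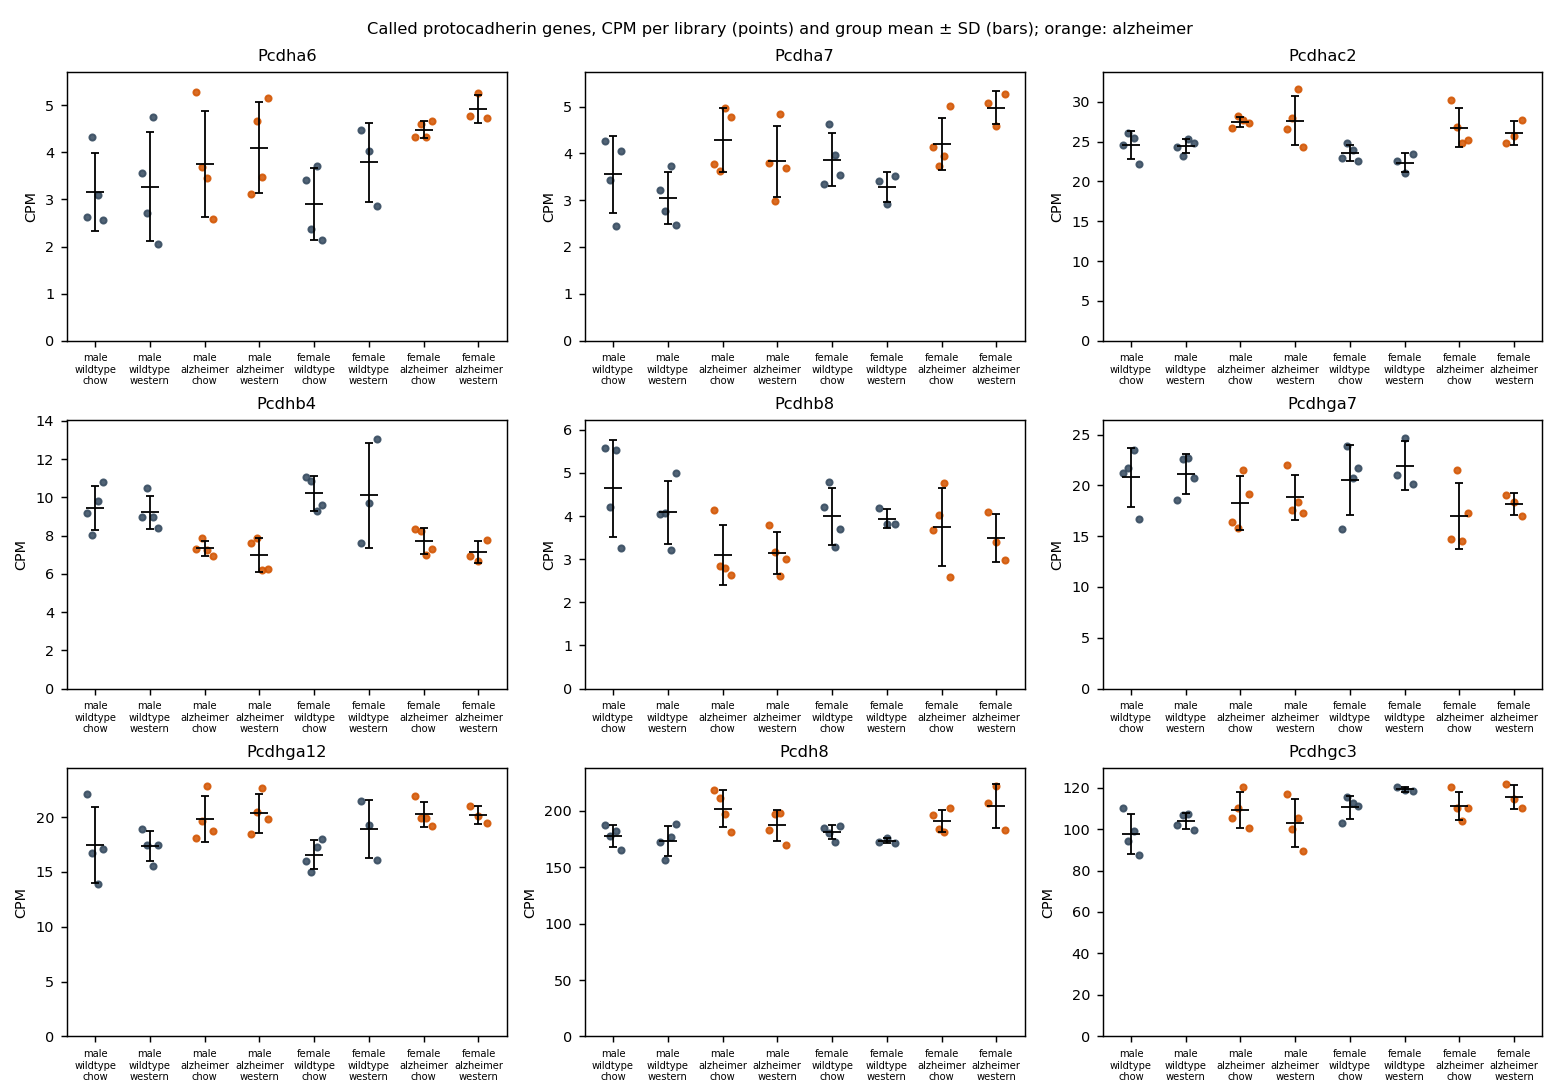
CPM per library (y axes, starting at 0) by group (x axes) for the 8 members called for genotype and for Pcdhgc3, called for sex; points are libraries (orange for alzheimer) and bars the group mean ± SD. Alzheimer libraries of Pcdhb4 lie between 6.20 and 8.34 CPM and wildtype libraries between 7.60 and 13.04 CPM.

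Between the sexes 1 of 48 members changed (2.08%), where 0.837% of all genes tested were called and 0.518% were called higher in females. That member was Pcdhgc3, whose lowest, median and highest values were 103, 114 and 122 CPM in 14 female and 87.3, 104 and 120 CPM in 16 male libraries. It was higher in females by 0.15 ± 0.033 on the log2 scale (adjusted p = 0.0265 by edgeR), with 13 of 14 female libraries above the male mean of their genotype and diet, although the sexes overlapped. The difference was 0.14 ± 0.048 in cohort 1 and 0.16 ± 0.043 in cohort 2, and neither alone passed (adjusted p = 0.151 and 0.153 by edgeR). It also fell short without the 3 libraries high in choroid plexus markers (adjusted p = 0.126 by edgeR), or without female_alzheimer_chow replicate 10 or female_alzheimer_western replicate 11 (adjusted p between 0.0536 and 0.0776 by edgeR). Pcdhb6, with 0.21 ± 0.067, and Pcdha10, with 0.47 ± 0.15, did not pass (adjusted p = 0.112 and 0.130 by edgeR). The X-linked genes Pcdh19 and Pcdh11x were not called either.

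Diet called 0 of 48 members by edgeR, where 1 of 12547 genes (0.00797%) was called, and 1 member had an unadjusted p under 0.05. It was Pcdha12, with -0.20 ± 0.086 on the western diet (adjusted p = 0.844 by edgeR), followed by Pcdhga5 with 0.17 ± 0.088 and Pcdh20 with 0.06 ± 0.031 (adjusted p = 0.914 by edgeR for both). Pcdh20 changed sign in cohort 1 alone, at -0.0079. Of the 14 alpha members 12 had a negative value, as had 6370 of all 12547 genes tested. The alpha median was -0.07, and none but Pcdha12 had an unadjusted p under 0.05. Alpha rows may share reads of the constant exons, so their signs need not be independent. DESeq2 and limma-voom also called 0 members for diet.

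Interactions between the factors called no member by edgeR. Genotype by diet and genotype by sex called 0% of all genes tested, and diet by sex called 1.23%. For genotype by diet 3 members had an unadjusted p under 0.05, all in the alpha cluster. The genotype difference on the western diet minus that on chow was 0.56 ± 0.17 for Pcdha9, -0.42 ± 0.18 for Pcdha5 and 0.66 ± 0.28 for Pcdha8 (adjusted p = 0.9999 by edgeR for each). For genotype by sex 1 member did, Pcdha10, with 0.71 ± 0.30, and Pcdha9 and Pcdhb8 followed with 0.31 ± 0.17 and 0.33 ± 0.19 (adjusted p = 0.999 by edgeR for each). For diet by sex 1 member did, Pcdh17, with 0.19 ± 0.059 (adjusted p = 0.103 by edgeR), ahead of Pcdhgb8 with 0.24 ± 0.13 and Pcdh19 with 0.12 ± 0.079. DESeq2 and limma-voom called 0 members in all 3 interactions.

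**Figure D4:**
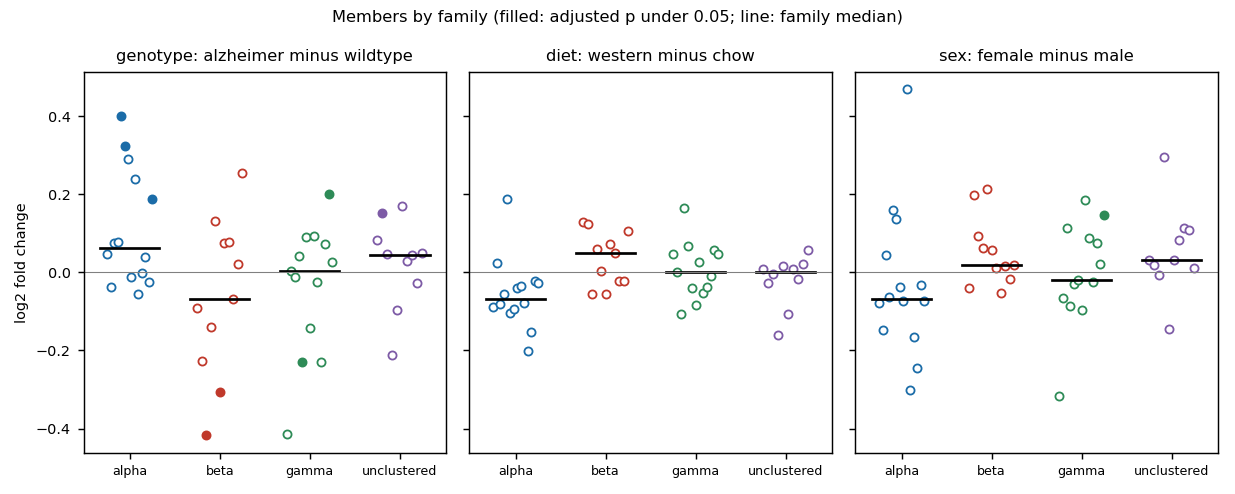
Log2 fold changes of single members (points) for genotype, diet and sex (panels), by family on the x axis, with the family median as a line; filled points have an adjusted p under 0.05. Filled points appear for genotype in every family and for sex only at Pcdhgc3, at 0.15.

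Cohort 2 differed from cohort 1 in 0 of 48 members by edgeR, where 0.0877% of all genes tested were called and 5 members had an unadjusted p under 0.05. The smallest p belonged to Pcdh19, at 0.16 ± 0.040 (adjusted p = 0.0850 by edgeR), Pcdh20, at -0.11 ± 0.031 (adjusted p = 0.121 by edgeR), and Pcdh9, at -0.07 ± 0.021 (adjusted p = 0.154 by edgeR). DESeq2 called 2 members, Pcdh19 and Pcdh20, where it called 1.09% of all genes tested, and its own filter left 42 of 48 members without an adjusted p. The limma-voom fit called 0.

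Members also differed in how much they varied between libraries of 1 group. The biological coefficient of variation is the spread left after group, cohort and counting error. It was compared with that of all other genes tested in the same interval of average log2 CPM. It exceeded their median in 36 of 48 members and their upper quartile, above which 25% of genes lie by definition, in 21 of 48. For clustered members these counts were 29 and 16 of 38, and for unclustered members 7 and 5 of 10. Gamma members stood above the upper quartile in 9 of 13 cases, alpha members in 4 of 14 and beta members in 3 of 11. These counts are a description with no test. Variation fell with mean level, so a member near the lower end of its interval was set beside genes mostly read more.

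Pcdhga3 varied by 17.9% at a mean of 12.05 CPM, and single libraries ran from 7.46 to 19.5 CPM. The 4 libraries of female_alzheimer_chow spanned 7.46 to 19.2 CPM, and the highest library of all was in female_wildtype_chow. The median of other genes at that level was 8.57%. Pcdhga8, of the same cluster, varied by 15.5% at 16.2 CPM. The median of other genes was 6.61% in its interval, from 4 to 5 on the log2 CPM scale. Pcdhga8 lay near the lower end of that interval, and the interval from 3 to 4 had a median of 8.57%. The gamma genes with the least variation were the c-type Pcdhgc3 at 6.05% and Pcdhgb7 at 6.56%, and Pcdhga1 varied most at 20.6%, close to the 20.99% of other genes as low as it.

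Among alpha members the c-type Pcdhac2 varied least at 5.90%, followed by Pcdha7 at 11.6%, and Pcdha8 at 22.3% and Pcdha10 at 21.9% varied most. In the beta cluster Pcdhb9 at 6.62% and Pcdhb20 at 7.38% varied least, and Pcdhb2 at 17.2% and Pcdhb21 at 16.4% most. Pcdh9 had the lowest value of all members, 3.81%, followed among unclustered genes by Pcdh17 at 5.23%, while the low Pcdh11x and Pcdh12 had 25.6% and 19.7%. Pcdhac2 and Pcdhgc3 had the lowest values of their clusters and are also the most read members there, where variation is lower for all genes. Set beside other genes at their own level, Pcdhac2 lay below the median of 6.61%, while Pcdhgc3 lay above both the median of 4.501% and the upper quartile of 5.27%.

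**Figure D5:**
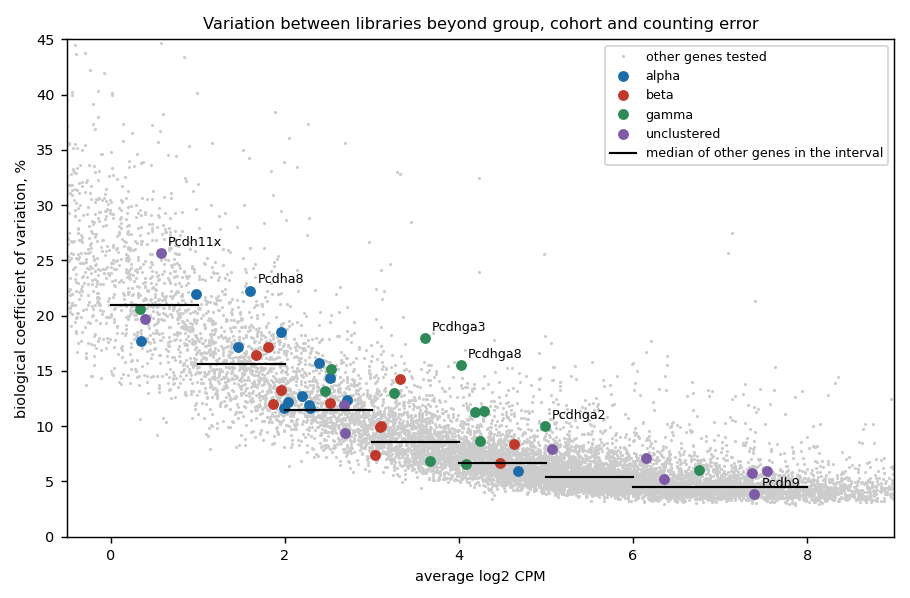
Biological coefficient of variation in percent (y axis) against average log2 CPM (x axis); grey points are other genes tested within the axis limits, coloured points the 48 members by family, and black lines the median of other genes in intervals of mean level. Pcdhga3 at 17.9% and Pcdhga8 at 15.5% stand above genes of like level, and Pcdh9 at 3.81% below.

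Genes that act on clustered protocadherin promoters or with the proteins were read beside the members. Of 21 listed promoter regulators, which include the insulator protein Ctcf, cohesin subunits and DNA methyltransferases, 15 were tested and 0 were called for genotype, with a median of 0.04. Of 27 tested partners and downstream genes 2 were higher in alzheimer rats and none lower. Prkca, a protein kinase C, was higher by 0.13 ± 0.041 (adjusted p = 0.0474 by edgeR).

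Other cadherins gave 4 calls among 30 tested, in both directions. Clstn2, a postsynaptic calsyntenin, rose by 0.19 ± 0.037 (adjusted p = 0.00133 by edgeR). Cdh22 had -0.22 ± 0.041, Cdh15 had -0.29 ± 0.083 and Cdh20 had -0.14 ± 0.044, all lower in alzheimer rats (adjusted p = 0.000511, 0.0245 and 0.0460 by edgeR). Their share, like that of the members, stands beside the 8.03% of all genes tested.

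Markers of cell types moved with genotype too, and their part in the protocadherin differences was not tested. In bulk tissue fewer cells of a type and less RNA per cell cannot be told apart. Called lower in alzheimer rats were 2 of 5 astrocyte markers, 2 of 5 microglia markers, 2 of 4 endothelium markers, 2 of 3 CA1 markers, 1 of 5 excitatory neuron markers, 1 of 6 interneuron markers, 1 of 2 tested dentate granule cell markers, 1 of 5 oligodendrocyte markers and 1 of 4 tested markers of pericytes and meninges. Among CA3 and CA2 markers 1 of 4 was called higher. Over all genes tested, 3.89% were called lower and 4.14% higher. The lists were mixed. The CA1 marker and the tested dentate marker without a call each had a log2 fold change of 0.15. The interneuron median was 0.02, although its call was lower. Of the lists with a lower call, only endothelium held no positive value. Markers of choroid plexus, ependyma and oligodendrocyte precursors gave no call. Summed levels overlapped between genotypes in every list.

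The CA1 sum ran from 718 to 1158 CPM in alzheimer and from 804 to 1087 CPM in wildtype libraries, and the CA3 and CA2 sum from 2100 to 2419 against 1932 to 2301 CPM. The astrocyte sum ran from 2775 to 3368 against 2811 to 3358 CPM, the dentate sum from 238 to 312 against 249 to 353 CPM, and the excitatory neuron sum from 6716 to 7631 against 6823 to 7693 CPM. The oligodendrocyte sum ran from 7388 to 11981 against 7411 to 13292 CPM and the interneuron sum from 499 to 578 against 495 to 603 CPM. For microglia it was 219 to 278 against 224 to 307 CPM, for endothelium 190 to 242 against 192 to 275 CPM, and for pericytes and meninges 66.3 to 98.0 against 76.6 to 102 CPM. None of these markers was at 0 in all libraries except Col1a2, 1 of the 5 for pericytes and meninges.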

How the data were processed

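Values are the authors' deposited raw counts per gene symbol, 1 column for each of 30 libraries, whole numbers with no scaling. Per the submitters' processing notes, reads were trimmed with cutadapt and aligned with STAR 2.7.0a; the counter, strandedness, genome build and gene models: not given in the sources used here. Counts were fitted in edgeR 4.0.16 (R 4.3.3) by a model of the 8 groups plus a cohort term, after filterByExpr (minimum count 10, minimum total 15; 12547 of 17455 genes) and TMM scaling. Contrasts weighted strata equally and used the two-sided quasi-likelihood F test, with Benjamini-Hochberg adjustment over all genes tested and a threshold of 0.05. The test over all 8 groups had 7 degrees of freedom. A library counted as above or below was compared with the mean of the opposite group sharing its other 2 factors. Alternatives were median-of-ratios scaling, other filters, DESeq2 1.42.0, limma-voom 3.58.1, no cohort term, each cohort alone, without the 3 libraries highest in choroid plexus markers, and without each library. The scripts' tests were tested on simulated data. No 2 libraries were identical. Members, gene lists and the naming rule (called members, the 3 smallest p where none was called, the 3 most read and the 2 least and most variable per family, members at the count threshold, called list genes) were chosen with earlier results of these data known; Pcdha8, Pcdhb3, Pcdhb5, Pcdhga10 and other members without a call were named after their values were seen. A called gene of the partner list is not reported here.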

Additional observations from a re-analysis of the deposited data

Results flagged for a closer look

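In 3 of 78 groups of 4 libraries, over the called members and family sums examined (13 in all), 1 library stood apart from the other 3 by Dixon's criterion at 95%; chance flags about 1 in 20 such groups. Pcdhb8 read 4.14 CPM in male_alzheimer_chow replicate 3, where the others of that group read 2.64 to 2.84 CPM. The gamma sum was 296.8 CPM in male_alzheimer_chow replicate 25, against 271 to 274 CPM in the others. The unclustered sum was 711 CPM in male_alzheimer_western replicate 28, against 725 to 728 CPM in the others.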

How the results depend on the processing

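The count of 8 members called for genotype stayed between 6 and 11 when scaling, filter, tool or cohort term changed or the 3 choroid plexus libraries were left out; it was 1 in cohort 1 alone, 4 in cohort 2 alone, and 5 to 9 without single libraries. For sex the count was 0 in cohort 1 alone, 0 in cohort 2 alone and 0 without the choroid plexus libraries, and 0 to 2 without single libraries. For cohort it was 1 with every gene that had a count, 2 with DESeq2, and 0 to 1 without single libraries; for diet by sex it was 0 to 1 without single libraries. For the 8 groups it was 5 with every gene that had a count, 5 with DESeq2, 4 with limma-voom, 0 in cohort 1 alone, and 1 to 3 without single libraries. The share of all genes called changed between runs too, as given above for single cohorts, DESeq2 and limma-voom. These counts alone are therefore no result about the members. The diet difference of Pcdh20 reversed to -0.0079 in cohort 1 alone. The causes were not tested. A single cohort has fewer libraries, and in cohort 1 some fold changes were also smaller, as for Pcdhb4 at -0.26. The sign of the 8 genotype calls and of the Pcdhgc3 difference held in every alternative run. Those runs reused libraries from which the calls were made, so that is no independent check. No paired analysis was possible because replicate numbers run from 1 to 30 over the series and groups share none. Depth limits the low members, and Pcdhac1 and Pcdh12 had as few as 9 counts in a library.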
